A study of Mus musculus with 6 samples.

Results

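The MHC class II presentation genes examined here are 10 genes picked by symbol: the class II chain genes H2-Aa, H2-Ab1 and H2-Eb1, the invariant chain gene Cd74, the peptide loading genes H2-DMa, H2-DMb1 and H2-DMb2, the loading inhibitor genes H2-Oa and H2-Ob, and the transactivator gene Ciita. All 10 were found among the 24424 genes of a read count table and among the 23393 genes of a normalized table, and all 10 passed the filter on low values in both. RNA sequencing libraries had been made from regulatory T cells, a Foxp3-dependent T cell class that keeps other immune cells in check, sorted from mouse spleen and peripheral lymph nodes. The groups were Bcl11b KO with EAE (KO EAE, n = 2), Bcl11b KO at steady state (KO, n = 2) and WT at steady state (WT, n = 2). EAE is the usual abbreviation of experimental autoimmune encephalomyelitis, an induced autoimmune disease of the central nervous system. The strain label of KO EAE and KO libraries is Bcl11bF/WT Foxp3YFP-Cre +/-, and that of WT libraries is Bcl11bF/F, with no Cre named. Cre recombinase driven by Foxp3 acts in cells that express Foxp3. The KO strain label thus names 1 floxed and 1 wild-type Bcl11b allele, while its genotype label reads KO. The labels give no age or sex, and do not say whether libraries of a group came from separate animals, so each p-value measures only the spread between these libraries, which may be technical. No WT library with EAE was analysed here.

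Class II molecules are pairs of an alpha and a beta chain that show peptides from endosomes to CD4 T cells. They are assembled around the invariant chain, which is cleaved in endosomes. The DM heterodimer then exchanges the remaining fragment for peptides, and the DO heterodimer holds DM back. Transcription of these genes is coordinated by Ciita, a co-activator that binds no DNA itself and is recruited to promoters by the RFX, CREB and NF-Y factors, which sit on the so-called X, X2 and Y boxes. B cells, dendritic cells and macrophages are the main cells that carry class II, whereas mouse T cells are known for expressing little of it.

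The promoters are shown first because they carry the boxes through which Ciita acts. Promoter sequences from 250 bases before to 50 after the start of each gene were taken from RefSeq (GRCm38.p6), which matched 7 of the 10 genes. The Y box TGATTGG, searched on both strands, was present in 6 of the 7 genes and in 7.82% of 32851 promoter windows of this length. The letters CNNATGATG, an X box piece chosen after these promoters had been read, stood in 4 genes, H2-Eb1, H2-DMb1, H2-DMb2 and H2-Ob, and in 2.75% of all windows, searched on both strands. The X2 box letters TGACGTCA stood in H2-Aa and in 1.79% of all windows, and none of the marked runs overlap. In the following windows of 62 bases, written 5′ to 3′ on the strand of the gene, capitals mark those letters, with the Y box as the last run of capitals.
H2-Aa: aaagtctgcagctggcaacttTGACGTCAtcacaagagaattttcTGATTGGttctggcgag
H2-Eb1: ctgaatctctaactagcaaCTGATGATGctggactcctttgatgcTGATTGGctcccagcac
H2-DMb1: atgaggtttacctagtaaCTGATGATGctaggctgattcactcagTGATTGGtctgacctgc
H2-DMb2: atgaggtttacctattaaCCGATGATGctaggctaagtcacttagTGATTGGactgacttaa
H2-Oa: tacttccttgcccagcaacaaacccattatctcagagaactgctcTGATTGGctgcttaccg
H2-Ob: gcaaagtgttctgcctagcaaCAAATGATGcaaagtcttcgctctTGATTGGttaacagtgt

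These windows lie at chr17:34287857-34287918 on the minus strand for H2-Aa and, on the plus strand, at chr17:34305761-34305822 for H2-Eb1, chr17:34153083-34153144 for H2-DMb1, chr17:34145112-34145173 for H2-DMb2, chr17:34092289-34092350 for H2-Oa and chr17:34238801-34238862 for H2-Ob. The Y box began between 45 bases (H2-Oa) and 92 bases (H2-DMb2) before the RefSeq start. The X box piece began 26 bases upstream of the Y box in H2-Eb1, 27 in H2-DMb1 and in H2-DMb2, and 24 in H2-Ob. Of all 32851 windows, 57 held both (0.174%), and they belonged to 54 genes, these 4 included. Neither H2-DMa window held the Y box letters. The letters are a description of the sequence, and binding was not measured. The promoters with the X and Y letters belonged to genes that rose in KO cells and to H2-Ob, whose level was lower there, as described below.

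The libraries of the count table held between 14663542 and 16904312 reads, at which 3 reads correspond to 0.177 to 0.205 counts-per-million (CPM). This floor, and every other statement on depth, covers counting error only. Bcl11b, the targeted gene, had 404 and 278 CPM in KO EAE libraries, 372 and 369.6 CPM in KO libraries and 419.9 and 425 CPM in WT libraries, with a log2 change of -0.19 in KO against WT (edgeR adjusted p = 0.527). It was thus lower in all KO EAE and KO libraries than in both WT libraries, by an amount that did not pass the test. Which Bcl11b exons were counted is not known from a gene total. Foxp3, the marker of the sorted cells, was at 163 and 149 CPM in KO EAE, 165 and 155 CPM in KO and 211 and 206 CPM in WT. It fell in KO relative to WT by 0.38 ± 0.08 (SE) on the log2 scale (edgeR adjusted p = 0.0254), a call that was lost in all 4 fits that left out a KO or WT library (adjusted p between 0.106 and 0.185).

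The normalized table holds KO and WT libraries only, and its values under the same library names differ from those of the count table. Whole reads recovered from it came to 25335011 and 24065561 in KO and 16884434 and 19410133 in WT. Cd74, for example, amounted to 572 and 502 CPM of recovered reads in KO and 207 and 307 CPM in WT there, against 127 and 159 CPM in KO and 77.6 and 74.0 CPM in WT in the count table. Bcl11b in that table was at 6746 and 5211 in KO and 10520 and 11370 in WT (log2 change -0.88, limma adjusted p = 0.0650). Foxp3 there was at 2306 and 2061 in KO and 2178 and 2420 in WT, which overlap (log2 change -0.07, limma adjusted p = 0.856). Comparisons were therefore made within a table, the count table first. In the authors' deposited table of KO against WT, the log2 fold change was -0.80 for Bcl11b (adjusted p = 7.91e-08) and -0.07 for Foxp3 (0.922).

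In KO regulatory T cells at steady state, 8 of the 10 class II genes rose relative to WT, and the 2 DO genes did not pass the test. The largest changes were in the DM beta genes, H2-DMb1 (12.3-fold) and H2-DMb2 (8.60-fold), and in Ciita (8.89-fold). The 3 class II chains rose 5.14- to 5.54-fold, Cd74 1.89-fold and H2-DMa 1.38-fold. Over all 14548 genes tested with edgeR, 9.41% were called higher and 3.46% lower at an adjusted p under 0.05. The median log2 change of the 10 genes was 2.41, beside -0.01 over all genes tested. DESeq2 likewise called 8 of the 10 higher and 0 lower, with 2425 of 14394 genes called in either direction. At an unadjusted edgeR p under 0.05 there were 8 higher and 1 lower, against 4128 of all 14548 genes in either direction. These are bulk samples, so more cells of a class II expressing type and more class II RNA per cell cannot be told apart.

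The 3 chain genes stood close together. H2-Aa, the alpha chain of the I-A molecule, had 88.7 and 102.6 CPM in KO EAE, 89.8 and 111 CPM in KO, and 20.5 and 18.6 CPM in WT. H2-Ab1, its beta chain, had 102 and 118 CPM in KO EAE, 101.0 and 124 CPM in KO, and 22.1 and 18.4 CPM in WT. H2-Eb1, the beta chain of the I-E molecule, had 94.4 and 110.0 CPM in KO EAE, 90.2 and 112.6 CPM in KO, and 21.6 and 15.5 CPM in WT. For each chain all 4 libraries with the KO label lay above both WT libraries, with no overlap, as did both KO libraries in 32.7% of all genes and both KO EAE libraries in 29.9%. The log2 changes in KO against WT were 2.36 ± 0.14 (SE) for H2-Aa (edgeR adjusted p = 0.000199), 2.47 ± 0.15 for H2-Ab1 (adjusted p = 0.000229) and 2.45 ± 0.19 for H2-Eb1 (adjusted p = 0.000634). The alpha and beta chains of I-A kept near equal read numbers: reads of H2-Aa per read of H2-Ab1 were 0.871 and 0.870 in KO EAE, 0.889 and 0.896 in KO, and 0.924 and 1.01 in WT.

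**Figure D1:**
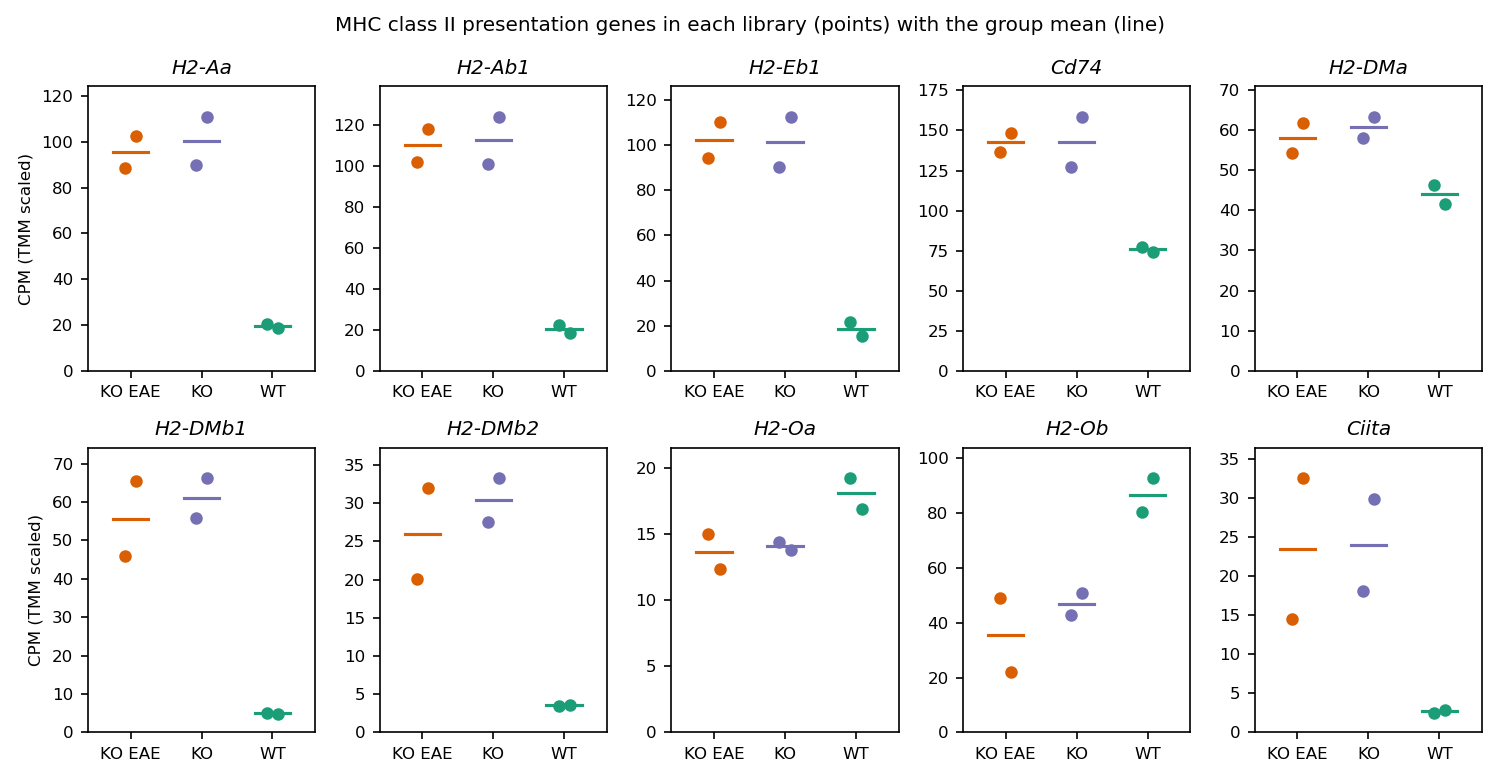
Level of each of the 10 class II genes in CPM after TMM scaling (vertical axes, starting at 0 and set per gene), with a point for each library and a line at the mean of the 2 libraries of each group (KO EAE, KO, WT from left to right). For 8 genes the KO EAE and KO points lie above both WT points, and for H2-Oa and H2-Ob they lie below.

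Cd74 encodes the invariant chain that occupies and escorts class II before peptide loading. It had 137 and 148.5 CPM in KO EAE, 127 and 159 CPM in KO, and 77.6 and 74.0 CPM in WT, a log2 change in KO against WT of 0.92 ± 0.12 (edgeR adjusted p = 0.00468). In the count table it was thus called higher by less than the chains, and the mix of reads differed between groups. Reads of H2-Aa per read of Cd74 were 0.649 and 0.691 in KO EAE, 0.705 and 0.699 in KO, and 0.264 and 0.251 in WT. In the normalized table this ratio was 0.149 and 0.145 in KO and 0.111 and 0.120 in WT, a smaller difference. Cd74 was also the highest of the 10 per length, at a mean of 84.9 RPKM (CPM per kilobase of exon) in KO EAE, 85.2 in KO and 45.2 in WT, whereas H2-Eb1, the next in KO, had 52.6, 52.2 and 9.54 RPKM in the same 3 groups.

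Of the peptide loading genes, H2-DMa encodes the DM alpha chain, and H2-DMb1 and H2-DMb2 encode 2 alternative beta chains. H2-DMa had 54.2 and 61.7 CPM in KO EAE, 58.1 and 63.3 CPM in KO, and 46.2 and 41.6 CPM in WT. H2-DMb1 had 46.0 and 65.4 CPM in KO EAE, 55.9 and 66.3 CPM in KO, and 5.005 and 4.90 CPM in WT. H2-DMb2 had 20.1 and 31.9 CPM in KO EAE, 27.5 and 33.3 CPM in KO, and 3.50 and 3.55 CPM in WT. Both beta genes were near the bottom of the set in WT and rose far more than the alpha gene. The log2 change in KO against WT was 3.62 ± 0.21 for H2-DMb1 (edgeR adjusted p = 0.000191), 3.10 ± 0.28 for H2-DMb2 (adjusted p = 0.00102) and 0.47 ± 0.11 for H2-DMa (adjusted p = 0.0386). The call for H2-DMa was lost in each of the 4 fits that left out 1 KO or WT library (edgeR adjusted p between 0.113 and 0.231) and with the replicate block (0.0595).

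The 2 DM subunits were thus at unequal read numbers in WT and at near equal ones in KO. Reads of H2-DMb1 per read of H2-DMa were 0.848 and 1.06 in KO EAE, 0.962 and 1.05 in KO, and 0.108 and 0.118 in WT. Per length, H2-DMb1 averaged 33.1 RPKM in KO EAE, 36.3 in KO and 2.95 in WT, and H2-DMa 16.8, 17.6 and 12.7 RPKM in the same groups. The beta genes are near copies of each other, with 92.8% identity over 1196 aligned transcript bases, and 27.2% of the 50-base windows of H2-DMb1 occur unchanged in H2-DMb2. How the authors' counting split such reads is not known, so the values of each are uncertain, while no other pair of the 10 genes shares such a window. The exons of H2-DMa overlap those of Brd2 on the other strand, and those of H2-Oa and Ciita overlap BC051537 and Dexi on the other strand. Strand use is not given in the sources used here, so reads of such a pair cannot be told apart.

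The DO genes did not rise. H2-Oa, the DO alpha chain, had 14.97 and 12.3 CPM in KO EAE, 14.4 and 13.8 CPM in KO, and 19.2 and 16.9 CPM in WT. H2-Ob, the DO beta chain, which in mice is found mainly in B cells and some dendritic and thymic cells, had 49.1 and 22.0 CPM in KO EAE, 42.7 and 51.0 CPM in KO, and 80.3 and 92.7 CPM in WT. All KO EAE and KO values of both genes lay below both WT values, with no overlap. The log2 change in KO against WT was -0.36 ± 0.18 for H2-Oa (edgeR adjusted p = 0.264) and -0.89 ± 0.34 for H2-Ob (adjusted p = 0.152), so neither passed. For H2-Ob the fit to KO and WT libraries alone gave -0.87 with an edgeR adjusted p of 0.00603. Over all genes, 32.7% had both KO libraries above both WT libraries and 32.5% had both below, which is the background for the 8 genes above and the 2 below among the 10. Reads of H2-DMb1 per read of H2-Ob were 0.936 and 2.98 in KO EAE, 1.31 and 1.30 in KO, and 0.0624 and 0.0528 in WT. Reads of H2-DMb1 thus outnumbered those of H2-Ob in both KO libraries and in KO EAE replicate 2, and not in WT. Per length, H2-DMb1 also stood above H2-Ob in KO EAE replicate 1 (27.4 against 9.13 RPKM). In the normalized table the ratio was 0.191 and 0.214 in KO and 0.112 and 0.098 in WT, so H2-Ob had more reads in each library there.

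Ciita had the lowest level per length of the set in every group, at a mean of 2.46 RPKM in KO EAE, 2.52 in KO and 0.282 in WT. It had 14.4 and 32.5 CPM in KO EAE, 18.1 and 29.9 CPM in KO, and 2.50 and 2.88 CPM in WT, from 40 and 47 reads in the WT libraries. Both WT libraries lay below all others, and the 2 libraries of each KO group differed widely. The log2 change in KO against WT was 3.15 ± 0.47 (edgeR adjusted p = 0.00879). It lost its call in 3 of the 4 fits that left out a library, without KO replicate 2, WT replicate 1 or WT replicate 2 (edgeR adjusted p between 0.0513 and 0.0647), and kept it without KO replicate 1 (0.0293). Reads of Cd74 per read of Ciita were 9.45 and 4.57 in KO EAE, 7.04 and 5.31 in KO, and 31 and 25.7 in WT.

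Per length, the order of the mean levels in KO was Cd74 (85.2 RPKM), H2-Eb1 (52.2), H2-Ab1 (43.8), H2-DMb1 (36.3), H2-Aa (26.4), H2-DMa (17.6), H2-DMb2 (17.4), H2-Oa (10), H2-Ob (8.71) and Ciita (2.52). In WT it was Cd74 (45.2 RPKM), H2-Ob (16.1), H2-Oa (12.8), H2-DMa (12.7), H2-Eb1 (9.54), H2-Ab1 (7.90), H2-Aa (5.14), H2-DMb1 (2.95), H2-DMb2 (2.02) and Ciita (0.282). The DO genes and H2-DMa followed Cd74 in WT, and the chains and H2-DMb1 followed it in KO. The order in KO EAE was that of KO. The values of neighbouring genes overlapped between libraries for H2-DMa and H2-DMb2 and for H2-Oa and H2-Ob in KO EAE, for H2-Eb1 and H2-Ab1, H2-Ab1 and H2-DMb1, and H2-DMa and H2-DMb2 in KO, and for H2-Oa and H2-DMa and H2-Eb1 and H2-Ab1 in WT, so these neighbours are not set apart. The other neighbours did not overlap, but the order between genes also depends on the merged exon length used as divisor. H2-Aa had a higher mean than H2-DMb1 in KO before this division (100.4 against 61.1 CPM), with merged exons of 3798 against 1681 bases.

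The comparison of KO EAE with KO asks how the genes stand under EAE, within cells that carry the same genotype label. None of the 10 passed edgeR's test, and the ranges of the 2 groups overlapped for all 10, whereas 17% of all genes had both KO EAE libraries above both KO libraries and 21.3% had both below. Of all genes 0.0137% were called in either direction, so this count says little about the class II genes. No class II gene had an unadjusted p under 0.05, against 1378 of all genes, and DESeq2 called none of the 10, against 167 of 13483 genes. The log2 changes ran from -0.40 (H2-Ob, edgeR adjusted p = 0.696) to 0.01 (H2-Eb1, adjusted p = 0.985). For Ciita the change was -0.03 ± 0.42 (edgeR adjusted p = 0.983). H2-Ob was the exception on leaving out a library: without KO EAE replicate 1, in which it stood at 49.1 CPM against 22.0 CPM in replicate 2, it was called lower in KO EAE (log2 change -1.085, edgeR adjusted p = 0.0421), with the lone KO EAE library assumed to vary like the other groups.

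KO EAE against WT uses the same WT libraries as KO against WT, so the 2 comparisons are not independent. In it 7 of the 10 genes were called higher by edgeR and 0 lower, with 7.41% of all genes called higher and 1.95% lower. At an unadjusted edgeR p under 0.05 there were 8 higher and 1 lower, against 3824 of all genes in either direction. DESeq2 called 7 higher and 1 lower, with 2227 of 13483 genes called in either direction. For 8 of the 10 both KO EAE libraries lay above both WT libraries and for 2 below, against 29.9% and 30.7% of all genes. The log2 changes were 2.29 ± 0.14 for H2-Aa (edgeR adjusted p = 0.000304), 3.49 ± 0.21 for H2-DMb1 (adjusted p = 0.000304) and 3.12 ± 0.47 for Ciita (adjusted p = 0.0113). H2-DMa, at 0.40 ± 0.11, did not pass in this comparison (edgeR adjusted p = 0.0746). H2-Ob had -1.28 ± 0.34 (edgeR adjusted p = 0.0769), was called lower by DESeq2 (adjusted p = 0.00165), and had edgeR adjusted p-values of 0.00111 without KO EAE replicate 1 and 0.0294 without KO EAE replicate 2. Ciita lost its call without WT replicate 1 (edgeR adjusted p = 0.0814) or WT replicate 2 (0.0641).

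**Figure D2:**
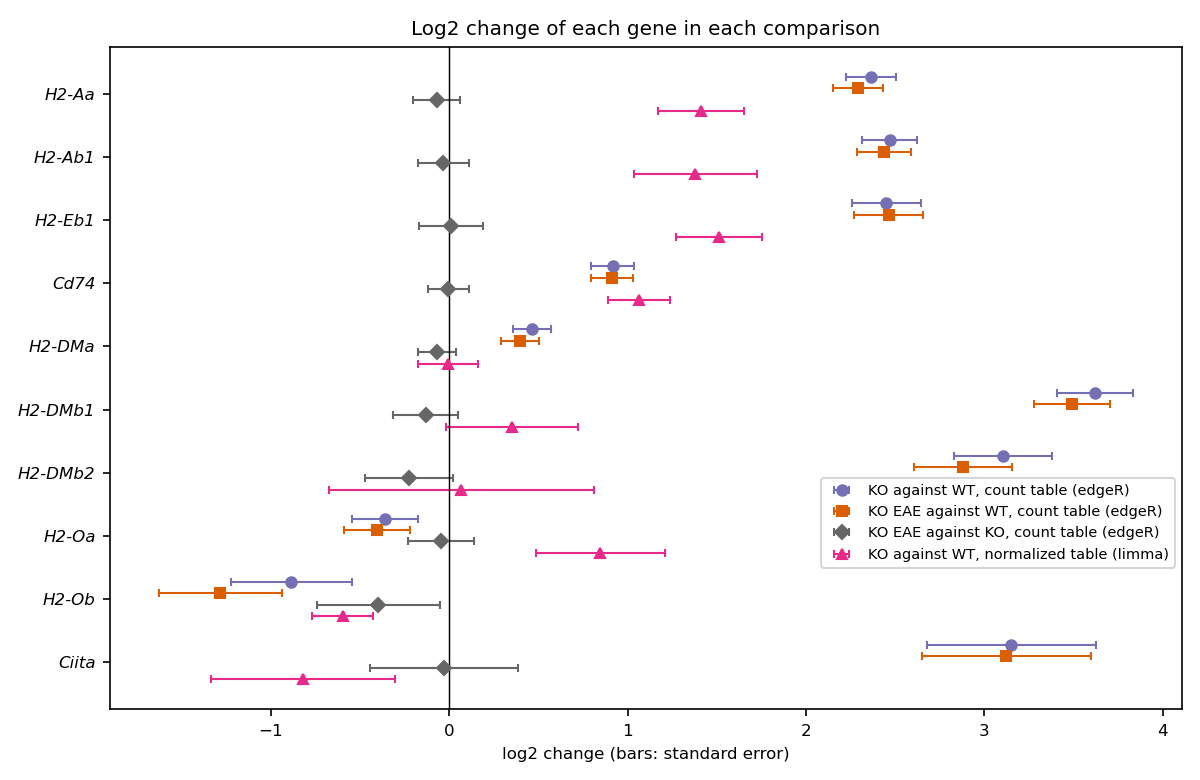
Log2 change with its standard error (horizontal axis) of each of the 10 genes (vertical axis) in KO against WT, KO EAE against WT and KO EAE against KO from the count table, and in KO against WT from the normalized table. The changes against WT nearly coincide in the count table, those of KO EAE against KO lie between -0.40 and 0.01, and H2-DMb1, H2-DMb2 and Ciita are high in the count table but not in the normalized table.

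In the normalized table, the 3 chains and Cd74 had log2 changes between 1.06 and 1.51 in KO against WT that did not pass the test, and those of the DM genes were between -0.01 and 0.35. With limma on log2(value + 1), where the pseudocount understates changes of low genes, 0 of the 10 passed, and 0.181% of all 12149 genes tested were called. At an unadjusted p under 0.05 there were 6 of the 10, against 1592 of all genes. With edgeR on the recovered reads 0 of the 10 and 0.0979% of all genes (12) were called. Few genes of any kind were thus called in this table.

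H2-Aa had normalized values of 1781 and 1502 in KO, against 493 and 767 in WT, a log2 change of 1.41 ± 0.24 (limma adjusted p = 0.0832). H2-Ab1 had 2904 and 2551 in KO, against 681 and 1602 in WT (1.38 ± 0.34, limma adjusted p = 0.188). H2-Eb1 had 1215 and 998 in KO, against 327 and 452.5 in WT (1.51 ± 0.24, limma adjusted p = 0.0694). The chains did not overlap between the groups in this table either. Cd74 had 11990 and 10380 in KO, against 4439 and 6416 in WT, with a log2 change of 1.06 ± 0.17 (limma adjusted p = 0.0732). In the authors' deposited table, which compares KO with WT, the log2 fold changes of these 4 were 1.03 for H2-Aa (adjusted p = 1.33e-05), 0.88 for H2-Ab1 (0.00123), 1.07 for H2-Eb1 (1.52e-05) and 0.92 for Cd74 (2.69e-08), and 3.36% of its 10396 genes with an adjusted p had one under 0.05.

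Of the other 6 genes, H2-Ob was lower in both tables without passing, and the other 5 differed from the count table. H2-DMb1 had 191 and 206 in KO, against 182 and 132.5 in WT, and its log2 change was 0.35 ± 0.37 (limma adjusted p = 0.716). H2-DMb2 had 79.4 and 34.4 in KO, against 34.4 and 72.2 in WT, and its groups overlapped (0.07 ± 0.74, limma adjusted p = 0.976). Ciita had 103 and 63.5 in KO, against 192 and 108 in WT, with a log2 change of -0.82 ± 0.52 (limma adjusted p = 0.525). The sign for Ciita was thus opposite in the 2 tables. H2-Oa had 331 and 231 in KO, against 136 and 172 in WT (0.85 ± 0.36, limma adjusted p = 0.376), also opposite in sign to the count table. H2-Ob had 1001 and 962 in KO, against 1629 and 1350 in WT (-0.60 ± 0.17, limma adjusted p = 0.235). H2-DMa had 1355 and 1138 in KO, against 1202 and 1295 in WT, and did not separate the groups (limma adjusted p = 0.990). The authors' deposited table gave 0.15 for H2-DMb1 (adjusted p = 0.861), 0.02 for H2-DMb2 (0.984), -0.26 for Ciita (0.647), 0.40 for H2-Oa (0.423) and -0.49 for H2-Ob (0.0979). Against the normalized background of 23.3% of genes with both KO libraries above both WT libraries and 22.4% below, 6 of the 10 were above and 2 below.

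The proportions among the class II messages differed between tables as well. Reads of H2-DMb1 per read of H2-DMa in the normalized table were 0.141 and 0.181 in KO and 0.152 and 0.102 in WT, near the WT values of the count table. Reads of Cd74 per read of Ciita were 115.9 and 163.4 in KO and 23.1 and 59.6 in WT.

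Chromosome 17 holds 8 of the 10 genes in a stretch of 224335 bases (mm10, GENCODE M21, chr17:34092340-34316674). Cd74 lies at chr18:60803848-60812652 and Ciita at chr16:10480059-10528418. From the start of H2-Oa onward the order is H2-Oa, H2-DMa, H2-DMb2, H2-DMb1, H2-Ob, H2-Ab1, H2-Aa and H2-Eb1, with H2-Aa the only one on the minus strand. Of the genes that did not pass, H2-Oa lies at one end and H2-Ob among those that rose. H2-Ob starts at 34238903 and ends at 34254414, and H2-Ab1, the next class II gene, starts at 34257689. Between the DM and the DO beta genes lie genes of class I presentation, which trims and transports peptides for the other class of MHC molecules. In KO against WT the log2 changes of these were -0.06 for Psmb9 and -0.06 for Psmb8, both immunoproteasome subunits, and -0.14 for Tap1 and -0.17 for Tap2, the peptide transporter (edgeR adjusted p between 0.205 and 0.768). Of 13 other genes annotated in the stretch, 6 were tested, 0 were called, and their median log2 change was -0.09.

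**Figure D3:**
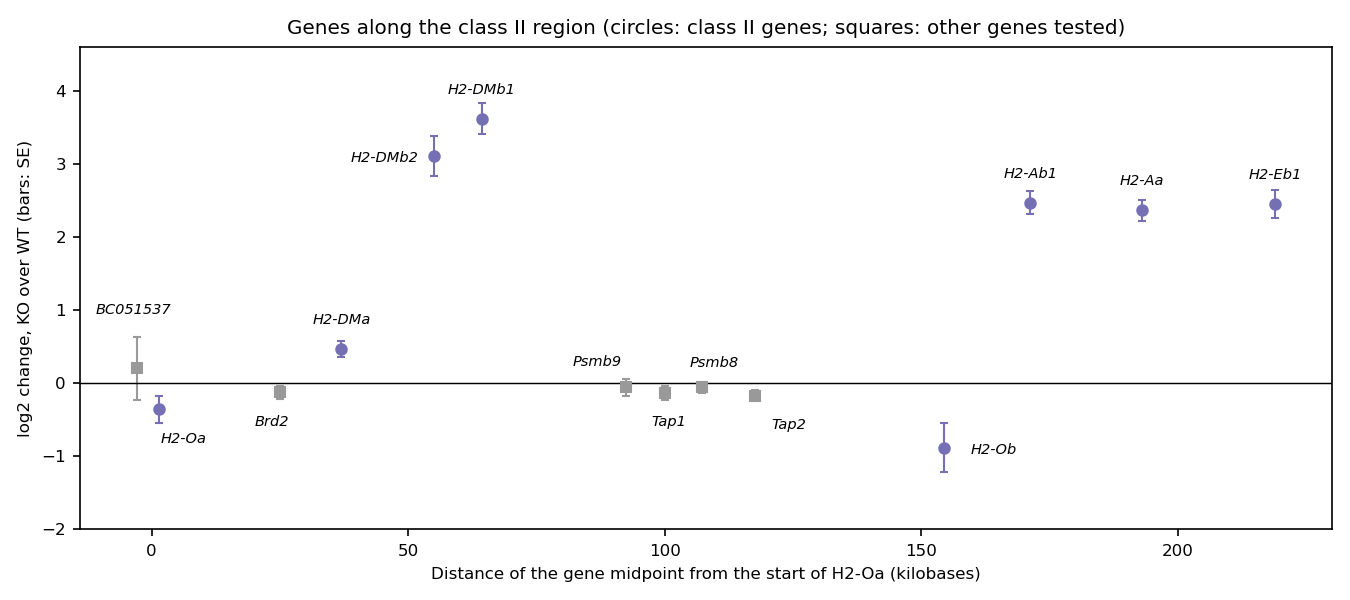
Log2 change in KO over WT with its standard error (vertical axis, count table) against the distance of each gene's midpoint from the start of H2-Oa in kilobases (horizontal axis). Circles are the 8 class II genes of chromosome 17 and squares the 6 other genes tested there, which lie near 0 next to class II genes with changes up to 3.62.

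Other genes of the class II pathway were read from a list of 46, of which 44 were in the count table. Among endosomal processing genes, 4 of 7 rose in KO against WT and 0 fell (edgeR). Ifi30, the thiol reductase that unfolds antigens, had 63.9 and 71.6 CPM in KO against 25.5 and 27.6 CPM in WT (log2 change 1.35 ± 0.13, edgeR adjusted p = 0.0014). Lgmn, an asparagine-specific endopeptidase, had 151 and 176 CPM in KO against 64.6 and 68.3 CPM in WT (1.30 ± 0.11, edgeR adjusted p = 0.000724). Ctsl and Ctsb, both cathepsin proteases, changed by 1.17 ± 0.14 (edgeR adjusted p = 0.00297) and 0.79 ± 0.09 (adjusted p = 0.00263). Ctss, the cathepsin that makes the last cuts of the invariant chain in B cells and dendritic cells, is named here after its values were seen: it had 122.5 and 143 CPM in KO against 148 and 119 CPM in WT and did not pass. Among normalized values 0 of these 7 were called by limma, while 4 had an unadjusted p under 0.05, and edgeR on recovered reads called 0. Ctsb there had a log2 change of 0.61 (limma adjusted p = 0.0996) and Lgmn of 0.81 (adjusted p = 0.119). In the authors' deposited table Ctsb (log2 fold change 0.57, adjusted p = 1.47e-05), Lgmn (0.68, 0.00208) and Ctsd (0.34, 0.0298) were higher in KO at an adjusted p under 0.05. The other genes of the 7 did not pass there.

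Of 10 regulators of Ciita, 2 rose and 2 fell in KO against WT. Spi1, which encodes PU.1, a factor of myeloid and B cells that acts on Ciita promoters, had 38.0 and 56.6 CPM in KO EAE, 55.2 and 60.8 CPM in KO, and 5.005 and 3.92 CPM in WT, a log2 change in KO against WT of 3.70 ± 0.24 (edgeR adjusted p = 0.000289). Irf8, a partner of PU.1, changed by 1.10 ± 0.17 (edgeR adjusted p = 0.00947). Irf4, a related factor of activated lymphocytes and effector regulatory T cells, fell by 0.69 ± 0.07 (log2, edgeR adjusted p = 0.00193), and Irf1, which relays interferon-gamma signals to Ciita, fell by 0.39 ± 0.07 (log2, edgeR adjusted p = 0.0174). The calls for Irf8 and Irf1 were lost in all 4 fits that left out a library (edgeR adjusted p between 0.0575 and 0.0776 for Irf8 and between 0.0603 and 0.149 for Irf1). Spi1 in the normalized table had a log2 change of 0.58 (limma adjusted p = 0.566) and Irf8 of -0.09 (adjusted p = 0.863).

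The factors that hold Ciita at the boxes shown above did not pass. Of 7 genes for RFX, NF-Y and CREB subunits, 0 were called in KO against WT by edgeR or DESeq2 and 0 had an unadjusted p under 0.05. The smallest adjusted p was that of Rfxap, an RFX subunit, at 0.247 (edgeR, log2 change -0.18 ± 0.09). Of 11 class I presentation genes 0 were called by edgeR, 2 had an unadjusted p under 0.05, and DESeq2 called 2 lower. These were Nlrc5, the class I counterpart of Ciita, at -0.44 ± 0.12 (edgeR adjusted p = 0.0618), and H2-K1, a classical class I chain, at -0.44 ± 0.13 (edgeR adjusted p = 0.0787). Thus 0 of the 11 class I genes rose in the count table where 8 of the 10 class II genes did. Among normalized values limma called 0 of the 11, 5 had an unadjusted p under 0.05, and edgeR on recovered reads called 0. In the authors' deposited table, however, 4 of the 11 were lower in KO at an adjusted p under 0.05: Nlrc5 (log2 fold change -0.49, adjusted p = 0.000908), Tap1 (-0.40, 0.0036), Tap2 (-0.38, 0.00672) and H2-K1 (-0.28, 0.0489).

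Of 4 costimulatory ligands, which accompany class II on presenting cells, 2 rose. Cd86 had 102 and 127 CPM in KO against 59.8 and 47.8 CPM in WT (log2 change 1.09 ± 0.18, edgeR adjusted p = 0.0114), and Icosl changed by 0.55 ± 0.12 (adjusted p = 0.0347). Neither call was stable to leaving out a library: edgeR's adjusted p reached 0.0817 for Cd86 without KO replicate 2 and 0.0666 without WT replicate 2, and lay between 0.0667 and 0.206 for Icosl in all 4 fits. In the authors' deposited table Icosl was higher in KO (log2 fold change 0.67, adjusted p = 0.0167), and Cd86 did not pass (0.27, 0.539). H2-Eb2, a further class II beta gene, had 2.10 and 7.30 CPM in KO against 1.56 and 0.612 CPM in WT and did not pass (edgeR adjusted p = 0.194). Lag3, an inhibitory receptor for class II, had a log2 change of 0.66 ± 0.21 (edgeR adjusted p = 0.105), with 0 of the 2 receptors called by edgeR, 1 at an unadjusted p under 0.05 and 1, Lag3, by DESeq2. In normalized values the sign of Lag3 was negative, with 209 and 170.0 in KO against 336 and 313.5 in WT (log2 change -0.78 ± 0.31, limma adjusted p = 0.354). In KO EAE against KO 0 genes of the whole list were called by edgeR, 5 had an unadjusted p under 0.05, and DESeq2 called 1.

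**Figure D4:**
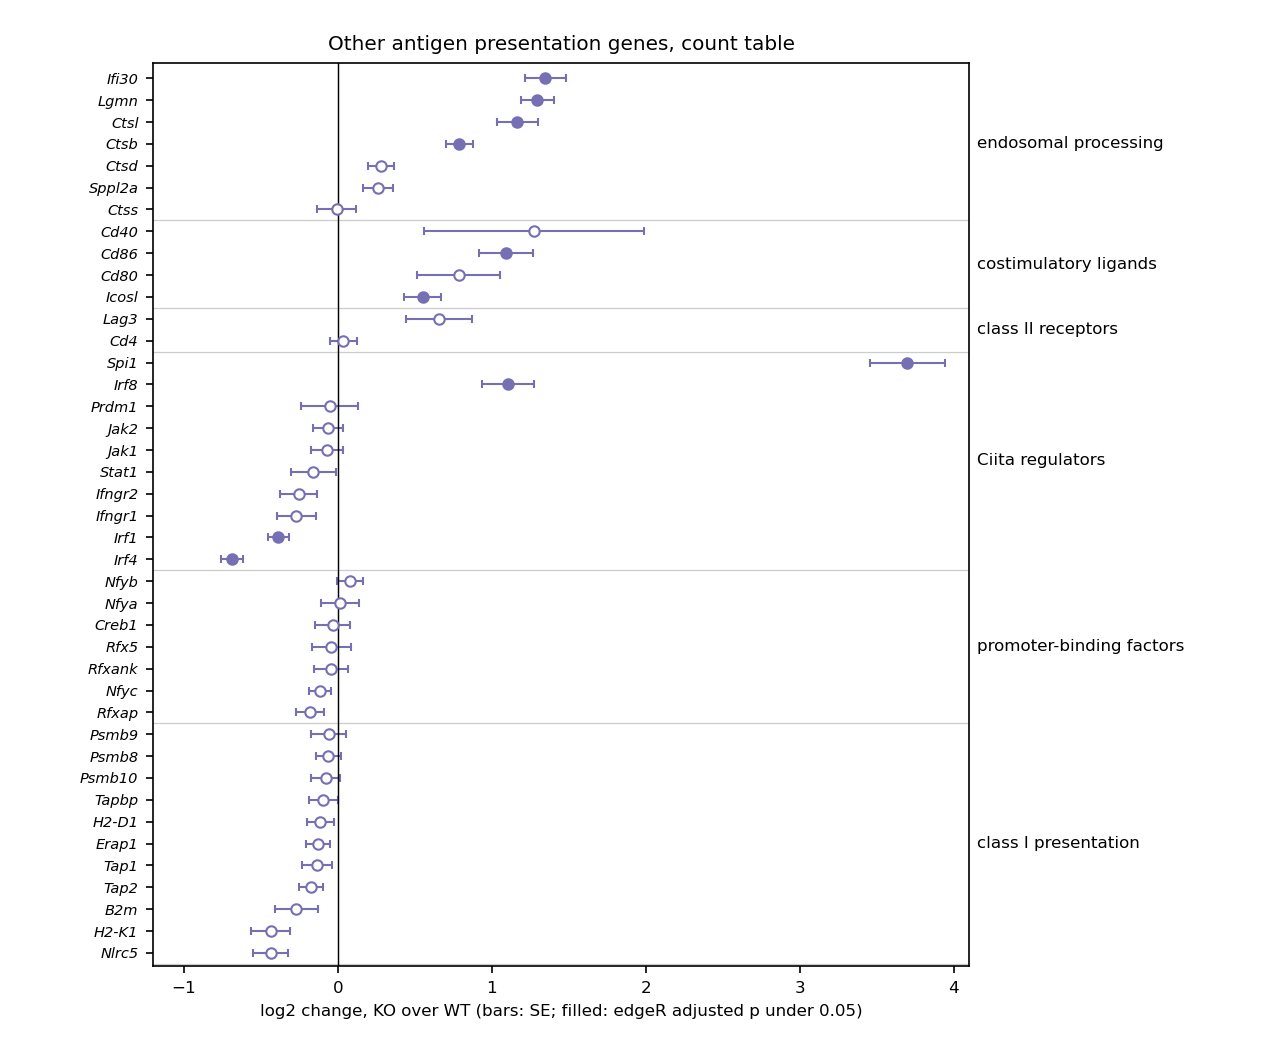
Log2 change in KO over WT with its standard error (horizontal axis, count table) of 41 other genes of antigen presentation, grouped by role and ordered by change within each role. Of the genes tested, H2-Eb2 and Cd83, each alone in its role, are not drawn. Filled points had an edgeR adjusted p under 0.05: 4 endosomal processing genes, 2 costimulatory ligands, and among the regulators of Ciita Spi1 and Irf8 above 0 and Irf1 and Irf4 below.

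Markers of other cells moved with the class II genes in the count table. Of 18 macrophage and monocyte markers, 16 rose in KO against WT and 0 fell, and their summed level was 1766 and 2387 CPM in KO EAE, 2026 and 2417 CPM in KO, and 452 and 418 CPM in WT. The sum over the 10 class II genes was 620.4 and 705 CPM in KO EAE, 625 and 764 CPM in KO, and 298.5 and 289 CPM in WT. Both sums thus separated the KO libraries from WT. Csf1r, the receptor of the macrophage growth factor M-CSF, had 325.5 and 395 CPM in KO against 48.1 and 58.7 CPM in WT, and Adgre1, which encodes F4/80, had 213 and 262 CPM in KO against 22.4 and 18.7 CPM in WT. The 2 that did not pass were Ly6c2, at 67.9 and 77.6 CPM in KO against 136 and 75.1 CPM in WT (log2 change -0.53, edgeR adjusted p = 0.581), and Ccr2 (0.26, edgeR adjusted p = 0.695). None of the 18 markers was at 0 in every library.

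Of 8 conventional dendritic cell markers, edgeR called 4 higher and 0 lower, and DESeq2 called 7 higher and 0 lower. Their sums were 75.4 and 94.5 CPM in KO EAE, 116 and 159 CPM in KO, and 9.89 and 13.0 CPM in WT. Itgax made up most of the KO EAE and KO sums (92.1 and 123 CPM in KO against 5.005 and 6.31 CPM in WT). Of 13 B cell markers, edgeR called 3 higher and 0 lower, and DESeq2 called 7 higher and 0 lower. At an unadjusted edgeR p under 0.05 there were 8 higher and 0 lower. The B cell sums were 143 and 239.8 CPM in KO EAE, 189 and 269.8 CPM in KO, and 69.1 and 60.0 CPM in WT. The 3 called by edgeR were Bank1 (log2 change 2.36, edgeR adjusted p = 0.000833), Cd22 (2.05, 0.0133) and Blnk (4.68, 0.000279). Cd79b, with them among the 4 of highest mean CPM, had 21.4 and 28.2 CPM in KO against 24.9 and 19.3 CPM in WT (0.17, edgeR adjusted p = 0.699). Pax5, a defining transcription factor of B cells, was low in all groups and had 0.624 and 1.84 CPM in KO against 0.125 and 0.367 CPM in WT. By edgeR, 1 of 4 plasmacytoid dendritic cell markers rose, as did 1 of 3 plasma cell, 3 of 3 erythroid and 2 of 6 stromal markers tested. By DESeq2 it was 3, 2, 3 and 3 of the same lists, and 0 of each fell by either test. Over all genes, DESeq2 called 2425 of 14394 in either direction. The plasma cell markers summed to 44.5 and 81.0 CPM in KO EAE, 42 and 80.8 CPM in KO, and 5.51 and 21.5 CPM in WT, and the plasmacytoid dendritic cell markers to 113 and 84.7 CPM in KO EAE, 117 and 139 CPM in KO, and 147 and 128 CPM in WT. Most of the latter sum was Pacsin1 (103 and 95.9 CPM in KO against 146 and 127 CPM in WT), which did not pass. The others were higher in KO than in WT. Cox6a2 (10.2 and 14.1 against 0.313 and 0.184 CPM) passed edgeR's test. Siglech (3.35 and 22.5 against 0.313 and 0.551 CPM) and Klk1 (1.19 and 6.82 against 0.188 and 0.184 CPM) did not. The globin genes Hba-a1, Hba-a2, Hbb-bs and Hbb-bt had at most 3 reads in each library. Of 3 neutrophil markers tested 0 were called by edgeR, 0 had an unadjusted p under 0.05, and DESeq2 called 0.

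The T cell markers were present throughout. Of 12 T and regulatory T cell markers 0 rose and 3 fell in KO against WT, with sums of 2338 and 2137 CPM in KO EAE, 2132 and 2229 CPM in KO, and 2618 and 2578 CPM in WT. The 3 that fell were genes of regulatory T cells: Foxp3, Ikzf2, which encodes Helios (by 0.78 ± 0.12 on the log2 scale, edgeR adjusted p = 0.00965), and Ctla4, an inhibitory receptor (by 0.69 ± 0.12, edgeR adjusted p = 0.0147). With a library left out, Ctla4 lost its call in all 4 fits (edgeR adjusted p between 0.0628 and 0.13) and Ikzf2 in 3 of 4 (up to 0.0725), keeping it without WT replicate 2 (0.0382). In the authors' deposited table Ikzf2 (log2 fold change -0.73, adjusted p = 0.000124) and Ctla4 (-0.56, 0.0116) were lower in KO, and Foxp3 did not pass (-0.07, 0.922). The other 9, among them Cd3e and Lck, had log2 changes between -0.18 and 0.06 and did not pass. Where values are on another scale, in the normalized table, the macrophage and monocyte sum was 28340 and 23200 in KO against 7420 and 13180 in WT. There the 10 class II genes summed to 20950 and 18070 in KO against 9316 and 12370 in WT, and the B cell markers to 1788 and 1236 in KO against 1087 and 1801 in WT. The part of other cells in the class II values was not tested.

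**Figure D5:**
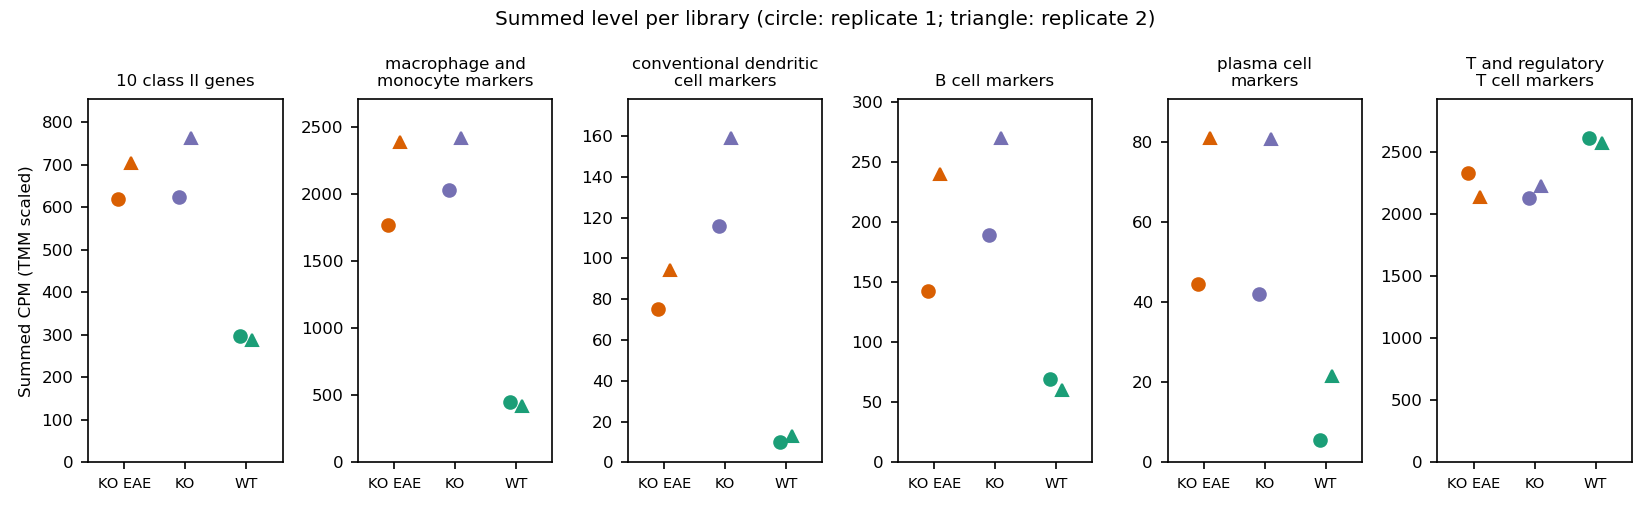
Summed CPM per library (vertical axes, starting at 0 and set per panel) of the 10 class II genes and of 5 marker lists, by group from left to right (KO EAE, KO, WT), with circles for replicate 1 and triangles for replicate 2. The macrophage, dendritic cell, B cell and plasma cell sums separate KO EAE and KO from WT as the class II sum does. The T cell sum, in which Foxp3, Ikzf2 and Ctla4 fell, lies lower in KO EAE and KO than in WT.

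Within each KO group, replicate 2 stood above replicate 1 for most class II genes. This held for 8 of 10 in KO EAE (median log2 difference 0.21) and 9 of 10 in KO (0.28), against 3 of 10 in WT (-0.10). The B cell and macrophage markers shared this split: 13 of 13 B cell markers were higher in replicate 2 in KO EAE (median 1.01) and 13 of 13 in KO (1.0), against 5 of 13 in WT (-0.09). For the macrophage and monocyte markers it was 18 of 18 in KO EAE (0.29), 16 of 18 in KO (0.23) and 9 of 18 in WT (-0.01). Of the conventional dendritic cell markers it was 8 of 8 in KO EAE, 6 of 8 in KO and 6 of 8 in WT. All 3 tested markers of each of the plasma cell, neutrophil and erythroid lists were higher in replicate 2 in KO EAE and in KO. In WT it was 1 of 3, 1 of 3 and 0 of 3. Some lists did not share the split in both KO groups. Of the T and regulatory T cell markers 0 of 12 were higher in replicate 2 in KO EAE (-0.09), 10 of 12 in KO (0.09) and 4 of 12 in WT (-0.02). Of the plasmacytoid dendritic cell markers it was 2 of 4 in KO EAE and 3 of 4 in KO. The share over all genes was not determined.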

How the data were processed

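The authors deposited 3 tables. The first holds raw read counts per gene for 6 libraries, which the authors deposited without normalization. The second holds KO and WT values scaled by the authors with size factors, a normalized signal in which whole reads were recovered (100% of values in each library, within 0.02 reads). The third is the authors' own KO against WT comparison, with a log2 fold change, a test score and p-values per the file headers; the score was not used. HISAT2, HTSeq, DESeq2 and mm10 are named, per the submitters' processing notes. Strand setting, annotation and tool versions are not given in the labels or files used here, nor what each tool was used for. The 25 entries of the count table and 27 of the normalized table that name no gene (at most 0.217% and 0.284% of a library) were left out, and 0 columns of per-sample values were unused.

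The count test was edgeR 4.0.16 under R 4.3.3 (glmQLFit and glmQLFTest after TMM, keeping genes by filterByExpr at a minimum count of 10 and total of 15), with 1 coefficient per group over all 6 libraries, 3 residual degrees of freedom, and Benjamini-Hochberg adjustment over 14548 genes at 0.05. Each standard error is the log2 change over the root of its F statistic. In WT every class II gene was above the filter, so none passed only through its high group. Normalized values were tested as log2(value + 1) with limma 3.58.1 for genes with a mean of at least 10. Replicates differed by more than sampling noise (chi-square per degree of freedom 32, 19.8 and 16.5 in KO EAE, KO and WT). RPKM divides CPM by the merged exon length of GENCODE M21. Alternatives were RLE scaling, library size only, DESeq2 1.42.0, no filter, other pseudocounts (0.5 and 5), the replicate block, the compared groups alone, edgeR on recovered reads, and each library left out.

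The genes, lists and rules were chosen with earlier results of these data known. All 10 class II genes are named. From each other list at most 4 pathway genes with the smallest adjusted p, or 4 markers with the highest mean CPM, were named. Pathway list genes inside the class II region (Psmb8, Psmb9, Tap1, Tap2) were named as neighbours. Pax5, Ctss, Ctsd, Ccr2, Cd3e and Ctla4 were named after their values were seen.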

Additional observations from a re-analysis of the deposited data

How the results depend on the processing

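The 2 libraries of each group leave 3 residual degrees of freedom, so small changes such as those of H2-DMa, H2-Oa and H2-Ob sit near what these libraries can show. In KO against WT, 8 of the 10 genes were called with RLE scaling, library size only, DESeq2 or no filter, 7 with the replicate block, 9 with KO and WT alone, and between 6 and 7 with a library left out. In KO EAE against WT, 7 were called, 8 by DESeq2, 7 with the replicate block, and between 6 and 9 with a library left out. In KO EAE against KO the count was 0, also with the replicate block, and between 0 and 1 with a library left out. In the normalized table it was 0, but 3 with the replicate block (H2-Aa, H2-Eb1 and Cd74, limma adjusted p = 0.033, 0.0344 and 0.02) and between 0 and 3 with a library left out, the 3 being H2-Aa, H2-Ab1 and Cd74 without WT replicate 2; the cause was not tested. The shared replicate numbers were not treated as pairs in the main test. Deviations of same-numbered libraries correlated at 0.0213 for KO and WT, 0.211 for KO EAE and KO and -0.137 for KO EAE and WT, and at 0.0033 in the normalized table. With only 2 libraries per group these values cannot show whether the numbers mark pairs, so the numbers count as names.

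Signs turned round for changes that had not passed the test. In KO EAE against KO, H2-Eb1 was at -0.019 with library size only, -0.015 with DESeq2 and -0.015 with no filter, and Cd74 was at 0.00997 with KO EAE and KO alone. With a library left out the log2 changes ran from -0.23 to 0.096 for H2-Aa, -0.18 to 0.13 for H2-Ab1, -0.15 to 0.19 for H2-Eb1, -0.17 to 0.17 for Cd74, -0.16 to 0.029 for H2-DMa, -0.41 to 0.11 for H2-DMb1, -0.60 to 0.078 for H2-DMb2, -0.19 to 0.088 for H2-Oa, -1.085 to 0.070 for H2-Ob and -0.73 to 0.45 for Ciita. In the normalized table H2-DMa was at 0.00401 by edgeR on recovered reads and between -0.13 and 0.12 with a library left out, and H2-DMb2 between -0.53 and 0.66. In KO against WT, Rfxank was at 0.020 with library size only and between -0.097 and 0.015 with a library left out, and Cd4 between -0.056 and 0.13.

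Alternatives for the pathway list and the T cell markers were chosen after seeing the data. Nlrc5 and H2-K1 were called lower with KO and WT alone (edgeR adjusted p = 0.0466 and 0.0455) and by DESeq2 (0.0116 and 0.0037), Cd80 higher with KO and WT alone (0.0262), Icosl lost its call with the replicate block (0.0567), and Foxp3 with no filter (0.0681). Over all genes, 1873 were called in KO against WT, 3121 with KO and WT alone and between 846 and 917 with a library left out. In KO EAE against WT it was 1362, 782 with those groups alone, 2227 by DESeq2 and between 603 and 3762 with a library left out. In KO EAE against KO it was 2, 3 with no filter, 167 by DESeq2, 0 with the block or those groups alone, and between 0 and 313 with a library left out. In the normalized table it was 22, 9 and 45 with pseudocounts of 0.5 and 5, 1 with no filter, 90 with the block, 12 by edgeR on reads, and between 0 and 71 with a library left out.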

Other observations

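The genes whose pattern over the 6 libraries lay closest to the average of the 10 class II genes were found among 10952 tested genes averaging 5 CPM or more, by the Euclidean distance between mean-centred log2(CPM + 0.5) values. The closest were Cpq (distance 0.0726), Blvrb (0.24), Grn (0.245), Unc93b1 (0.249) and Deptor (0.269), against a median distance of 1.94 over those genes. Cpq, a carboxypeptidase, had 38.0 and 44.3 CPM in KO EAE, 40.6 and 50.1 CPM in KO, and 14.0 and 14.0 CPM in WT. Unc93b1, which carries Toll-like receptors to endosomes, had 136 and 160.5 CPM in KO EAE, 152 and 178 CPM in KO, and 62.5 and 54.5 CPM in WT. Grn, the lysosomal protein progranulin, had 150.3 and 178 CPM in KO EAE, 160 and 179 CPM in KO, and 66.2 and 53.6 CPM in WT. The class II genes themselves lay at distances between 0.798 (H2-Aa) and 3.32 (H2-Ob) from their own average. Distances over 6 libraries are a description, since many genes separate the same groups.

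The class I light chain gene B2m differed in level between the tables, at 116 and 148 CPM in KO and 152 and 166 CPM in WT in the count table, and at 3392 and 3296 CPM of recovered reads in KO and 3530 and 2893 CPM in WT in the normalized table.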
